A study of Homo sapiens with 6 samples.

Results

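The APOBEC3 cytidine deaminases are a family of 7 human genes, APOBEC3A, APOBEC3B, APOBEC3C, APOBEC3D, APOBEC3F, APOBEC3G and APOBEC3H, and all 7 were found by symbol, each with 1 amplicon, among the 20802 genes measured. Their transcripts were counted in 6 libraries labelled as MCF10A, an established non-tumorigenic human mammary epithelial line. MCF10A WT was untransfected and has 2 libraries. MCF10A eGFP stably carried the vector with the fluorescent protein eGFP (2 libraries), and MCF10A GIRK1 stably carried the same vector with KCNJ3, which encodes the potassium channel subunit GIRK1 (2 libraries). Both stable lines had been selected with G418 and sorted for eGFP, whereas the WT cells had not, so the eGFP line is the control that shares vector and selection with the GIRK1 line. The question addressed here is whether any APOBEC3 transcript differed in the GIRK1 line from its controls.

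APOBEC3 enzymes remove the amino group from cytosine in single-stranded DNA and leave uracil. They restrict retroviruses and mobile elements, and APOBEC3A and APOBEC3B are also known as sources of C-to-T mutations in breast and other cancers. The family arose by gene duplication, and its members have 1 or a pair of zinc-binding deaminase domains. Several are induced by interferon, and APOBEC3G and APOBEC3F are best known from lymphocytes, where the HIV protein Vif directs them to degradation.

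Each value rests on a short amplicon of 103 to 108 bases, and the genes are close copies, so where the amplicons lie bears on every count. The cluster spans chr22:38952741-39104067 (GRCh38, GENCODE v29), 151 kb on the plus strand between CBX6 and CBX7, in the order A, B, C, D, F, G, H. The amplicons of APOBEC3A, APOBEC3B, APOBEC3D and APOBEC3G were placed on GENCODE transcripts from the transcript positions in the deposited files, with the deposited GC count as the only check. Over 17323 amplicons that count fitted the stated position in 46% and fitted a position moved by 50 bases in 8.12%. The amplicons of APOBEC3C, APOBEC3F and APOBEC3H could not be placed, since the sequence at their stated positions did not have the deposited GC count. Near those positions, 19, 35 and 45 windows of their transcripts had that count, so none could be chosen.

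The closest pair among the placed amplicons is APOBEC3B and APOBEC3A. The APOBEC3B amplicon is coding sequence of exons 5 and 6 (chr22:38989603-38991428, intron included in the span), and the matching stretch of APOBEC3A lies in exons 2 and 3 of its transcript (chr22:38959679-38961483), away from the amplicon that counts APOBEC3A. The 2 mismatches in 105 bases are shown in capitals:
APOBEC3B amplicon: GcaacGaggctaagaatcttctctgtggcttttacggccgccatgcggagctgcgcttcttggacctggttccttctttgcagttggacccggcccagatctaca
APOBEC3A, matching stretch: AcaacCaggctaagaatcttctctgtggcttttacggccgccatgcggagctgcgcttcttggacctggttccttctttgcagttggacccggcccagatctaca
A read from APOBEC3A that primed at the APOBEC3B amplicon would thus differ from APOBEC3B at only these bases. APOBEC3D and APOBEC3G are each closest to APOBEC3F, with 24 mismatches in 103 bases for the APOBEC3D amplicon (exons 2 and 3, chr22:39022999-39025156) and 22 in 108 for the APOBEC3G amplicon (exons 2 and 3, chr22:39079038-39080992). Both stretches of APOBEC3F lie in its exons 2 and 3 (chr22:39043075-39045027 and chr22:39043043-39045000), and capitals again mark the mismatches:
APOBEC3D amplicon: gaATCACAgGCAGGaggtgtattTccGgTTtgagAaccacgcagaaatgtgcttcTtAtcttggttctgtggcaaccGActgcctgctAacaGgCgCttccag
APOBEC3F, stretch matching APOBEC3D: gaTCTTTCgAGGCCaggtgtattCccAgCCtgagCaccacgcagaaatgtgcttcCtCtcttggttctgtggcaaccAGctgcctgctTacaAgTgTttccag
APOBEC3G amplicon: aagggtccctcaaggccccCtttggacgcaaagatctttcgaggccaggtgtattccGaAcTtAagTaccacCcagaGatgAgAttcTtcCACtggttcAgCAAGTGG
APOBEC3F, stretch matching APOBEC3G: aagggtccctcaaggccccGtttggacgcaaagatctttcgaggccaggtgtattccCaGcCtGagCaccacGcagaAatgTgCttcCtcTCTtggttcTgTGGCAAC
Of the windows that could hold the APOBEC3F amplicon, each was 94.3% to 98.1% identical to APOBEC3D, and the closest window to APOBEC3B was 97.1% identical to it, so reads assigned to APOBEC3F are uncertain. The windows for APOBEC3C were at most 86.7% identical to any other member, the closest being APOBEC3F. How the authors assigned reads that fit several members is not given in the sources used here.

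The libraries held 2506120 and 16040556 reads for WT, 5126930 and 10233974 for eGFP, and 11107309 and 10346572 for GIRK1. A level is given as RPM, the reads at an amplicon scaled to 1000000 reads of its library. A count of 0 allows up to 3 reads, which is 0.187 to 0.585 RPM in the 5 libraries compared below. KCNJ3 had 2408 and 3677 reads in the GIRK1 libraries and 0 in both eGFP libraries and in WT replicate 2. Its mean of 286 ± 98.0 RPM (SD, n = 2) in the GIRK1 line was at least 651-fold higher than the mean of the 3-read limits of the eGFP libraries. The library labelled WT replicate 1 stood apart. It held 48 KCNJ3 reads (19.2 RPM), 2 reads of the basal keratin KRT5 against 41922 to 61946 in the other 5 libraries, and 12796 reads of the luminal gene TFF1, which had 0 in each of those 5. Its 8 luminal markers summed to 13717 RPM against 390 to 493 elsewhere. This library is therefore shown apart, and whether it came from MCF10A cells was not tested. The comparisons use the other 5 libraries, in which the basal keratins KRT5, KRT14 and KRT17 were present and ESR1 and KRT19 were at 0. TP63, a further basal marker, was at 0 in all 6.

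In these 5 libraries APOBEC3C was the main APOBEC3 transcript, APOBEC3F was present at a few RPM, and the other 5 members were at or near 0. APOBEC3C took 94.2% to 97.8% of the reads at the 7 amplicons, and its RPM was higher than that of 88.2% to 94.8% of all genes. APOBEC3F followed with 2.15 to 6.15 reads per 100 reads of APOBEC3C. The exact 95% intervals (Clopper-Pearson, counting error only) of APOBEC3F lay below those of APOBEC3C in each of the 5 libraries. Amplification can differ between amplicons, so this order is one of amplicon reads, and their relation to transcript numbers was not tested.

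**Figure D1:**
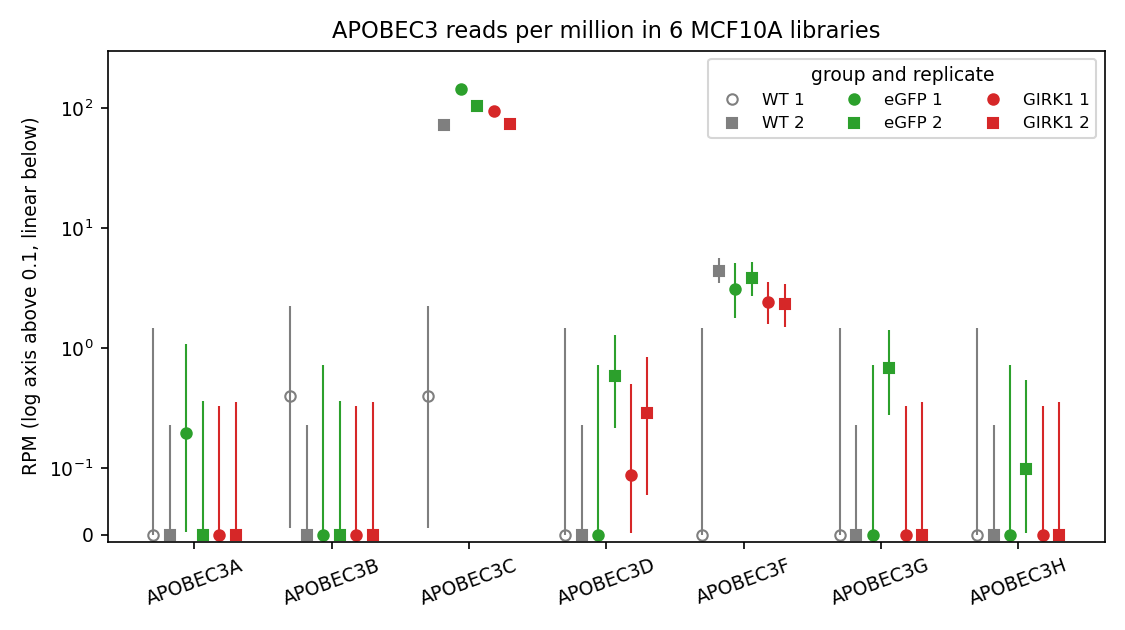
RPM of the 7 APOBEC3 genes (x axis) in 6 libraries labelled as MCF10A, with exact 95% counting intervals. The y axis is logarithmic above 0.1 RPM and linear below. Grey is WT (open symbol, the library labelled WT replicate 1), green eGFP and red GIRK1, with circles for replicate 1 and squares for replicate 2. APOBEC3C lies between 71.9 and 145 RPM and APOBEC3F between 2.32 and 4.43 RPM in 5 libraries, and all other points lie below 1 RPM.

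APOBEC3C, a single-domain enzyme that acts weakly on HIV and more on simian viruses and LINE-1 elements, was lower in both GIRK1 libraries than in both eGFP libraries but not lower than in WT replicate 2. It had 743 and 1070 reads in the eGFP libraries, which is 145 and 105 RPM. The GIRK1 libraries held 1057 and 767 reads, or 95.2 and 74.1 RPM. WT replicate 2 held 1154 reads, or 71.9 RPM. The groups GIRK1 and eGFP did not overlap, and WT replicate 2 was the lowest of the 5. The nearest pair across the groups, eGFP replicate 2 and GIRK1 replicate 1, had overlapping intervals of 98.4 to 111 and 89.5 to 101 RPM.

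The means were 125 ± 28.5 RPM in eGFP and 84.6 ± 14.9 RPM in GIRK1 (SD, n = 2 each). In edgeR's quasi-likelihood test over all 11779 genes that passed the filter on low counts, the log2 fold change of APOBEC3C in GIRK1 against eGFP was -0.61 (SE 0.27, 95% interval -1.24 to 0.02, Benjamini-Hochberg adjusted p = 0.279). The corresponding fold of 0.656 had an interval of 0.423 to 1.02. APOBEC3C was thus not called in this test, where its unadjusted p was 0.0569 and 20.4% of tested genes had a smaller one. The unadjusted p was 0.0351 with no filter (adjusted p = 0.237). It was 0.029 with the replicate number as a block (adjusted p = 0.185). Both GIRK1 libraries lay below both eGFP libraries in 24.8% of all tested genes. The call depended on eGFP replicate 2. Leaving that library out gave a log2 fold change of -0.88 (adjusted p = 0.0084), but the eGFP group was then 1 library, taken to vary like the GIRK1 libraries, and 2997 of 11739 genes (25.5%) were called in that fit, 13.8% as lower. Without eGFP replicate 1 the log2 fold change was -0.29 (adjusted p = 0.427). Over all alternatives the adjusted p ranged from 0.0084 to 0.983.

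Against WT replicate 2 the estimate had the other sign. The log2 fold change of APOBEC3C was 0.25 (SE 0.33, interval -0.52 to 1.03, adjusted p = 0.930 in the same edgeR fit). Here WT is 1 library, which the fit takes to vary like the other groups. Both comparisons share the GIRK1 libraries. With the eGFP libraries and WT replicate 2 as 1 control group of 3, the log2 fold change was -0.37.

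APOBEC3F, a double-domain enzyme that restricts HIV lacking Vif, was lower in both GIRK1 libraries than in all 3 controls. Its counts were low, and it was not called in either comparison. It had 16 and 39 reads in the eGFP libraries, 71 in WT replicate 2, and 27 and 24 in the GIRK1 libraries. In RPM these were 3.12 and 3.81 for eGFP, 4.43 for WT replicate 2, and 2.43 and 2.32 for GIRK1. The groups did not overlap, but the counting intervals of GIRK1 and eGFP did: those of the GIRK1 libraries reached 3.54 and 3.45 RPM, and those of the eGFP libraries began at 1.78 and 2.71 RPM. The interval of WT replicate 2 began at 3.46 RPM, so it overlapped that of GIRK1 replicate 1 and lay just above that of GIRK1 replicate 2. Both GIRK1 libraries lay below all 3 controls in 19.3% of all tested genes.

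The group means of APOBEC3F were 3.47 ± 0.488 RPM in eGFP and 2.38 ± 0.0785 RPM in GIRK1 (SD, n = 2 each). Against eGFP the log2 fold change was -0.59 (SE 0.43, interval -1.59 to 0.42, adjusted p = 0.483, edgeR). Against WT replicate 2 it was -0.87 (SE 0.48, interval -2.01 to 0.26, adjusted p = 0.766, edgeR). Both intervals include no change and a fall to 0.331 and 0.249 of the control level. In bulk RNA, fewer cells with a transcript and less of it per cell cannot be told apart.

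**Figure D2:**
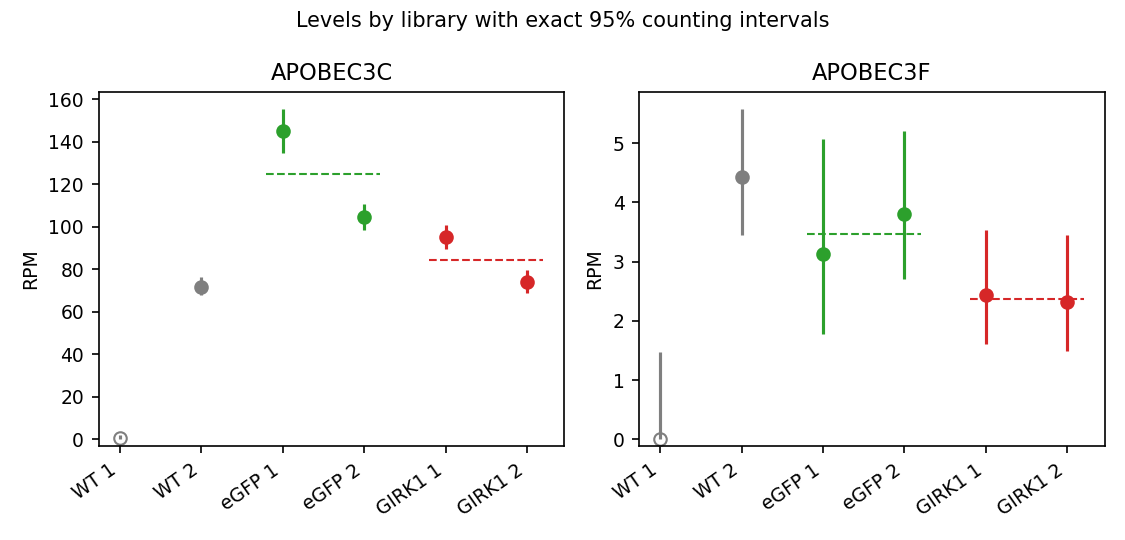
RPM of APOBEC3C (left) and APOBEC3F (right) in each library on linear axes from 0, with exact 95% counting intervals as vertical lines and the means of the eGFP (green) and GIRK1 (red) groups as dashed lines. APOBEC3C is lower in both GIRK1 libraries than in both eGFP libraries, with WT replicate 2 at 71.9 RPM lower still. The open symbols are the library labelled WT replicate 1, at 1 and 0 reads.

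The other double-domain enzymes, APOBEC3D and APOBEC3G, had at most 6 and 7 reads in any library. APOBEC3D, the member next to APOBEC3C on the chromosome, had 0 and 6 reads in eGFP, 1 and 3 in GIRK1 and 0 in WT replicate 2. Its highest value was 0.586 RPM (interval 0.215 to 1.28) in eGFP replicate 2. APOBEC3G, which edits the HIV genome in T cells, had 7 reads in eGFP replicate 2 (0.684 RPM, interval 0.275 to 1.41) and 0 in each of the other libraries. The upper limits of its intervals in the GIRK1 libraries were 0.332 and 0.357 RPM. All 7 reads lay in 1 eGFP library while the other had 0, so no difference between the groups is drawn from them.

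APOBEC3H, a single-domain enzyme whose human alleles differ in stability, had 1 read in eGFP replicate 2 and 0 elsewhere. APOBEC3A, a highly active single-domain enzyme of myeloid cells and keratinocytes, had 1 read in eGFP replicate 1 and 0 elsewhere. APOBEC3B, the nuclear double-domain enzyme, had 0 reads in all 5 libraries together, 0 of 52855341, which allows a level of up to 0.0568 RPM. Whether reads of the near-identical stretch of APOBEC3A would have been counted at this amplicon was not tested, so the limit holds for reads assigned to APOBEC3B. Whether the amplicon detects APOBEC3B where it is expressed was not tested either, so 0 reads do not show that the transcript was absent. No fold is given for these 5 members, which lay at or near the 3-read limit and did not pass the filter.

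Across all genes tested, 188 were called in GIRK1 against eGFP at an adjusted p below 0.05 (1.60%), of which 89 were higher (0.756%) and 99 lower (0.840%). Against WT replicate 2 there were 27 calls (0.229%), 23 higher (0.195%) and 4 lower (0.0340%). Of the 7 members, 2 passed the filter, and by edgeR's test 0 of these were called in either comparison. At an unadjusted p below 0.05 the number was also 0 in both, where 18.8% and 7.38% of all tested genes passed. DESeq2 called 0 members in both as well. The rule stated in the study's methods, a ratio of at least 2 with a coefficient of variation below 0.7 within each group, picked 1309 of 20802 genes (6.29%), 3.28% as lower, and 0 members. The ratio of group means was 0.679 for APOBEC3C and 0.685 for APOBEC3F.

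The genes most like APOBEC3C over these 5 libraries were TMEM19, STAT6 and ELK3. Likeness is the root mean square difference of log2 normalized levels after centring each gene, over the 9287 genes that averaged 50 reads or more. It was 0.043 for TMEM19, 0.056 for STAT6 and 0.056 for ELK3, against a median of 0.47 over the genes searched. TMEM19 had 13.3 RPM in WT replicate 2, 27.3 and 18.9 RPM in eGFP and 17.1 and 12.8 RPM in GIRK1. With 5 points in each pattern, this is a description only. In the library labelled WT replicate 1 the 3 genes had 36.7, 13.6 and 22.7 RPM, where APOBEC3C had 1 read.

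Interferon signalling, which is known to induce several APOBEC3 genes, was set beside the members through a list of 14 measured receptors and signalling genes, 12 of them tested. Against eGFP, 3 of these rose and 0 fell in the GIRK1 libraries, and the list's log2 fold changes had a median of 0.44 where that of all genes tested was 0.016. IRF9, a DNA-binding part of the complex that interferon activates, had 15.6 and 13.0 RPM in eGFP and 110 and 151 RPM in GIRK1 (log2 fold change 3.16, SE 0.28, adjusted p = 0.00471, edgeR). WT replicate 2, at 14.8 RPM, lay between the eGFP libraries, and the GIRK1 libraries lay far above all 3 controls.

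STAT2, which works in the same complex as IRF9, was higher by 2.06 on the log2 scale (adjusted p = 0.0103). USP18, which dampens signalling at the interferon receptor, was higher by 2.84 (adjusted p = 0.00764). Against WT replicate 2, IRF9 passed the threshold (3.16, adjusted p = 0.0302). STAT2 and USP18 did not, both at an adjusted p of 0.0502. The receptor genes IFNAR1 (log2 fold change 0.08 against eGFP) and IFNAR2 (-0.28) did not pass. APOBEC3C and APOBEC3F were thus not called in the libraries in which these 3 genes rose, and the interval of APOBEC3C against eGFP ended at a log2 fold change of 0.02, that of APOBEC3F at 0.42.

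**Figure D3:**
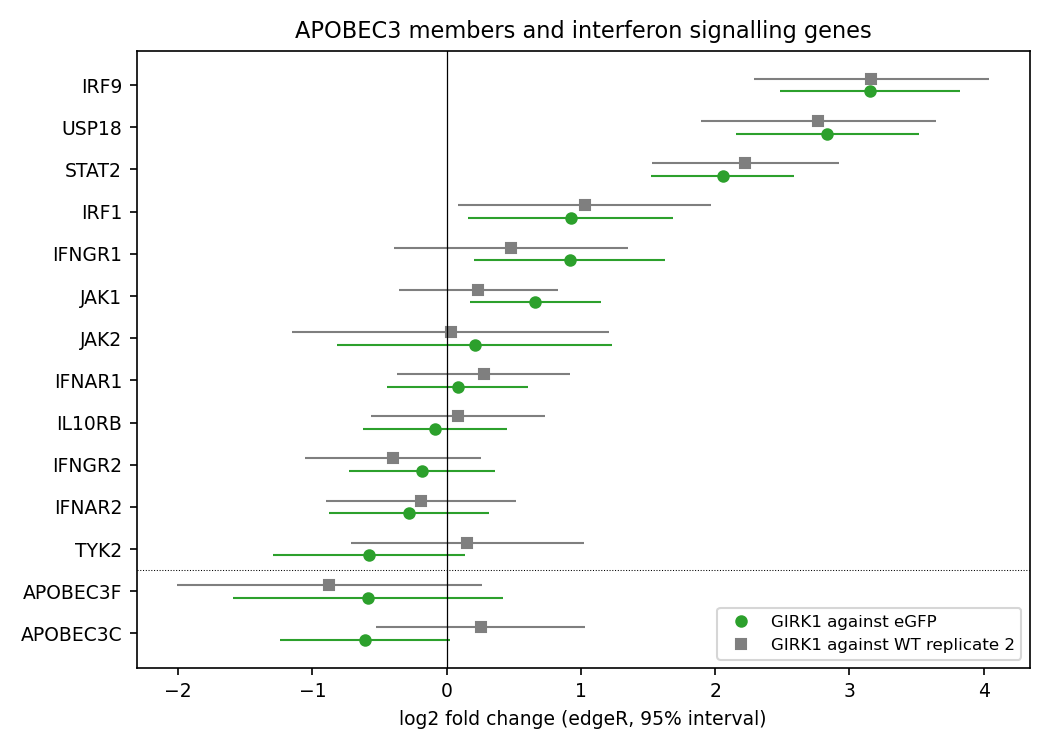
Log2 fold changes with 95% intervals from edgeR (x axis) of the 2 tested APOBEC3 members (below the dotted line) and of 12 interferon signalling genes (above it). Green circles give GIRK1 against eGFP and grey squares GIRK1 against WT replicate 2. The estimates of IRF9, USP18 and STAT2 lie above 2, and those of APOBEC3C and APOBEC3F lie between -0.87 and 0.25.

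Markers of other cells and libraries were read beside these values, and their part in the results was not tested. Of 7 leukocyte markers, PTPRC, CD3E, MS4A1 and HLA-DRA were at 0 reads in all 6 libraries. CD14 and CD68 were present in the 5 libraries, and the list summed to 44.1 to 45.8 RPM in eGFP, 31.0 to 35.1 in GIRK1 and 22.3 in WT replicate 2. The fibroblast list of 5 genes summed to 8.60 to 10.7 RPM in eGFP, 31.9 to 33.5 in GIRK1 and 13.7 in WT replicate 2. Of its genes DCN, a matrix proteoglycan, was higher in GIRK1 than in eGFP (log2 fold change 3.37, adjusted p = 0.0328, edgeR), and its value against WT replicate 2 was 1.37 (adjusted p = 0.661). The basal list of 7 genes summed to 7772 to 12656 RPM in eGFP, 8866 to 9649 in GIRK1 and 6717 in WT replicate 2. KRT17 was higher in GIRK1 than in eGFP (2.17, adjusted p = 0.00764), and its value against WT replicate 2 was 1.43 (adjusted p = 0.181).

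Other deaminases were measured through 14 genes, 9 of them tested, of which 0 were called in either comparison. Their log2 fold changes against eGFP had a median of -0.24. APOBEC1, APOBEC2 and APOBEC4 had 0 reads in all 6 libraries, as had the APOBEC1 cofactor A1CF. ADAR, which edits adenosine in RNA and has an interferon-induced form, had 221 and 247 RPM in eGFP, 285 in WT replicate 2, and 512 and 694 in GIRK1. Its log2 fold change of 1.33 against eGFP (SE 0.24) had an adjusted p of 0.0539 (edgeR) and so did not pass the threshold.

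CDA, the cytidine deaminase of pyrimidine salvage, had 859 and 156 reads in eGFP and 0 in the other 4 libraries. Its eGFP mean of 91.4 ± 108 RPM (SD, n = 2) was at least 326-fold above the mean of the 3-read limits of the GIRK1 libraries. The eGFP libraries differed 11.0-fold from each other, and the adjusted p was 0.0612 (edgeR). CDA was at 0 in WT replicate 2 too, so both GIRK1 libraries and that control were at 0.

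Repair of the uracil that APOBEC3 enzymes leave in DNA was covered by 18 genes, 16 tested, of which 0 were called in either comparison. The median over this list was -0.20 against eGFP on the log2 scale. UNG, the main uracil-DNA glycosylase, had 89.1 and 33.0 RPM in eGFP, 34.3 in WT replicate 2, and 31.8 and 31.3 in GIRK1 (log2 fold change -1.01, adjusted p = 0.295 against eGFP). One eGFP library was high and the other 4 lay within a few RPM of each other. SAMHD1, which breaks down DNA precursors, had the smallest p of the list, with 12.5 and 4.69 RPM in eGFP, 5.86 in WT replicate 2, and 33.2 and 47.4 in GIRK1 (2.23, adjusted p = 0.0855).

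The share of forward reads differed between both detected amplicons. For APOBEC3C it was 44.4% to 58.7% in the 5 libraries. APOBEC3F reads were mostly forward, at 91.5% (65 of 71) in WT replicate 2, 62.5% and 74.4% in eGFP, and 88.9% and 91.7% in GIRK1. In 4 libraries it had at least 20 reads, and this share was higher than in 98.8% to 99.3% of such amplicons. The comparison took every amplicon with at least 20 reads, whose median was 48.9% to 49.2%, and was not matched on read count. The exact intervals of the GIRK1 libraries (70.8% to 97.6% and 73.0% to 99.0%) overlapped those of the eGFP libraries (35.4% to 84.8% and 57.9% to 87.0%). Forward and reverse reads of APOBEC3F numbered 10 and 6 in eGFP replicate 1 and 29 and 10 in eGFP replicate 2. They numbered 24 and 3 in GIRK1 replicate 1 and 22 and 2 in GIRK1 replicate 2. Relative to library size, forward reads alone were not higher in eGFP replicate 1 than in the GIRK1 libraries. The order of APOBEC3F levels given above thus holds for total reads.

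**Figure D4:**
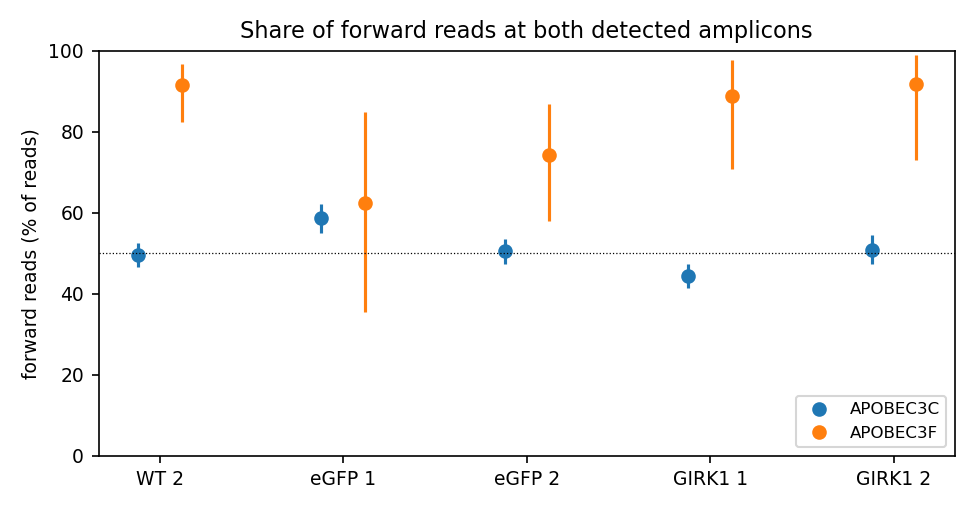
Forward reads as a percentage of all reads at the APOBEC3C (blue) and APOBEC3F (orange) amplicons in 5 libraries, with exact 95% intervals. APOBEC3C lies between 44.4% and 58.7%, and APOBEC3F between 62.5% and 91.7%. The dotted line marks equal shares.

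The library labelled WT replicate 1 differed from the others in this family too. APOBEC3C had 1 read there (0.399 RPM), and the level in WT replicate 2 was 180 times as high, with a counting interval of 32.3 to 7127. Of 2590 genes with at least 50 RPM in each of the other 5 libraries, 51 (1.97%) had at most 1 read in it. APOBEC3F had 0 reads, where its level in WT replicate 2 was at least 3.70-fold above the 3-read limit. APOBEC3B had 1 read there and 0 in each of the other 5 libraries, and APOBEC3A, APOBEC3D, APOBEC3G and APOBEC3H had 0.

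The genes on either side of the cluster were present in this library. The cluster's neighbours CBX6 and CBX7, which encode Polycomb proteins, had 5.19 and 7.98 RPM in it against 6.92 and 2.68 RPM in WT replicate 2. RPL3, a ribosomal protein gene 299 kb from the start of APOBEC3C, had 1318 RPM against 3160. Of 15 neighbouring genes listed, 14 lay above the 3-read limit in the library labelled WT replicate 1 and 11 in WT replicate 2. Between GIRK1 and eGFP, 0 of the 11 neighbours tested were called, and their median was 0.19 on the log2 scale. The smallest p among them was that of DDX17, an RNA helicase gene (0.76, adjusted p = 0.146).

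**Figure D5:**
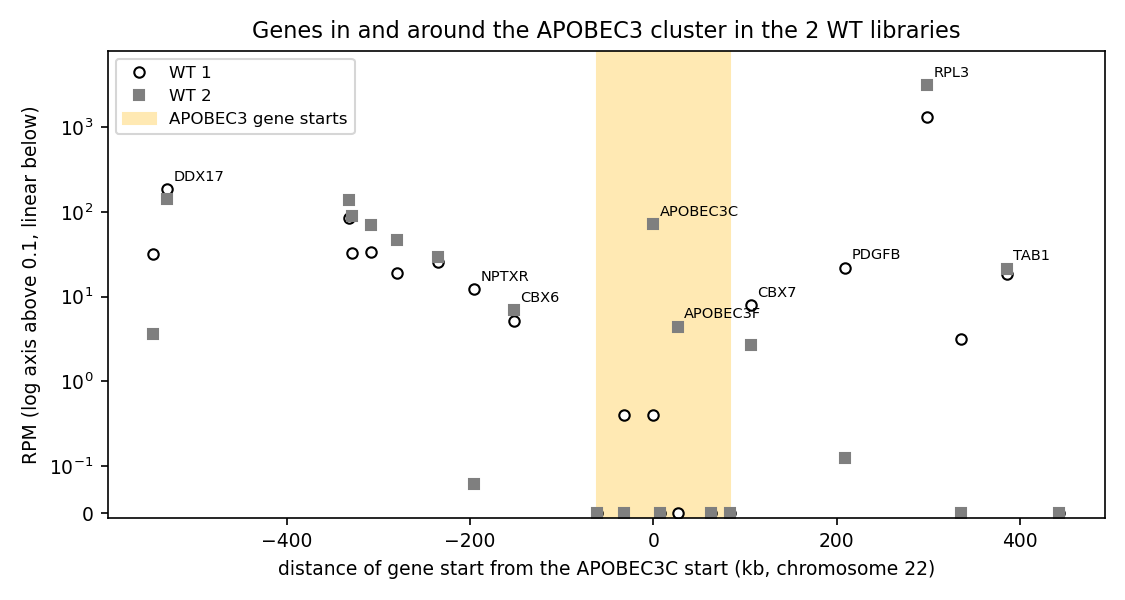
RPM of the APOBEC3 genes and 15 neighbouring genes (y axis, logarithmic above 0.1 RPM and linear below) against the distance of each gene start from that of APOBEC3C on chromosome 22 (x axis, kb), for WT replicate 1 (open circles) and WT replicate 2 (grey squares). Within the shaded span of APOBEC3 gene starts APOBEC3C falls from 71.9 RPM in WT replicate 2 to 0.399 in WT replicate 1, whereas RPL3, CBX6 and CBX7 outside it are present in both.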

How the data were processed

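RNA of 6 libraries labelled as MCF10A was amplified by the whole-transcriptome Ion AmpliSeq panel, which reads 1 amplicon per gene, and sequenced on an Ion S5 XL. With the Ion Torrent suite, the authors aligned reads to the panel's own transcriptome. They deposited raw read counts for every amplicon, and RPM, the count scaled to 1000000 reads of the library. The 20812 rows include 10 spike-in rows with 0 reads. Groups came from the sample titles. The series text speaks of separate lines and the methods of replicates, so whether libraries of a group came from separate lines is not known and p-values measure only the spread between these samples. The GIRK1 libraries also carry a name tag that the other 4 do not. If it marks a run, run and group cannot be told apart.

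Counts were tested with edgeR 4.0.16 (TMM, filterByExpr, quasi-likelihood) in R 4.3.3, on 5 libraries without WT replicate 1, with Benjamini-Hochberg adjustment over 11779 genes and a threshold of 0.05. Levels, shares and 95% exact intervals were computed in Python 3.11.15 with scipy 1.17.1. The edgeR script was run on simulated counts in which 200 of 11779 genes changed 8-fold. It called 93.5% of these and 22 unchanged genes, and smaller changes were not simulated. In this simulation the false calls were a larger share of all calls than the threshold of 0.05. DESeq2 1.42.0, other normalizations and filters, reads covering the whole amplicon (planned as end-to-end reads, which is how these columns were first understood), a replicate block and leaving out libraries were the alternatives. Gene positions came from GENCODE v29. Some genes of the lists are not reported here and stay out of the lists' counts, sums and medians. The members and lists were chosen with earlier results of these data known. All members are named. Of each other list, up to 4 called genes are named, or up to 2 of smallest p, and further genes (UNG, IFNAR1, IFNAR2, list genes at 0, the neighbours CBX6, CBX7 and RPL3, and KCNJ3 and the cell markers) were named after their values were seen.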

Additional observations from a re-analysis of the deposited data

Results flagged for a closer look

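The library labelled WT replicate 1 is left out of the comparisons, and 3 of its values lay above those of the control libraries. KCNJ3, the transgene of the GIRK1 line, had 19.2 RPM there and 0 reads in WT replicate 2 and in both eGFP libraries. The 8 luminal markers summed to 13717 RPM, against 390 to 493 RPM in the other 5 libraries. The 5 fibroblast markers summed to 15.6 RPM, all of it from COL1A1 (39 reads) with the other 4 markers at 0. That sum lay above WT replicate 2 (13.7 RPM) and the eGFP libraries (8.60 and 10.7 RPM) but below the GIRK1 libraries (31.9 and 33.5 RPM). In the same library APOBEC3C had 1 read and APOBEC3B had 1 read.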

How the results depend on the processing

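The number of APOBEC3 members called was 0 under every alternative run in both comparisons, except that it was 1, APOBEC3C lower, against eGFP without eGFP replicate 2, so leaving out 1 library gave 0 to 1 members. The log2 fold changes of APOBEC3C against eGFP (-0.88 to -0.29) and of APOBEC3F kept their sign throughout. The counts over all genes moved more. Against eGFP, 188 calls became 865 with no filter, 107 with at least 10 reads in every library, 677 by DESeq2 and 0 with all 6 libraries (606 at an unadjusted p below 0.05), and leaving out 1 library gave 158 to 2997, with 973 without eGFP replicate 1 and 2997 without eGFP replicate 2. Against WT replicate 2, 27 calls became 133 with no filter, 16 with at least 10 reads, 128 by DESeq2 and 0 with all 6 libraries, and leaving out 1 library gave 34 to 576, the highest without eGFP replicate 1, with 449 without eGFP replicate 2 and 64 without GIRK1 replicate 1. The cause was not tested. The study's rule picked 2501 genes without its coefficient of variation. With the replicate number as a block, 549 and 77 genes were called and 0 members, and APOBEC3C had log2 fold changes of -0.59 and 0.02. Same-numbered libraries deviated together by correlations of 0.193 (eGFP and GIRK1), 0.129 (eGFP and WT) and 0.0393 (GIRK1 and WT) over 9212 genes, so the numbers were not taken to pair them. At 16 to 71 reads, APOBEC3F could be estimated only within wide intervals.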

Other observations

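Known regulators of APOBEC3B and genes linked to them, the DREAM complex with MYB, p53, NF-kB and TEAD genes, were measured through 22 genes, all tested. None (0) was called in either comparison by edgeR. At an unadjusted p below 0.05 there were 6 against eGFP and 1 against WT replicate 2. Of all tested genes, 18.8% and 7.38% were below 0.05. Against eGFP the list's median log2 fold change was 0.11, with 14 estimates positive and 8 negative. RBL1, a pocket protein of the DREAM complex, had 8.39 and 13.2 RPM in eGFP, 14.7 in WT replicate 2, and 25.1 and 21.2 in GIRK1 (log2 fold change 1.05, adjusted p = 0.132, edgeR). FOXM1, a target and partner of that system in the cell cycle, had 114 and 88.9 RPM in eGFP, 91.6 in WT replicate 2, and 60.3 and 57.4 in GIRK1 (-0.83, adjusted p = 0.141). APOBEC3B itself had 0 reads in these 5 libraries.

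The host ubiquitin ligase that Vif recruits to APOBEC3 proteins was measured through 7 genes, all tested and 0 called in either comparison. At an unadjusted p below 0.05 (edgeR) there were 2 against eGFP and 0 against WT replicate 2. The shares of all tested genes were 18.8% and 7.38%. The list's median log2 fold change against eGFP was 0.30. CBFB, the cofactor that stabilises Vif, had 35.5 and 49.4 RPM in eGFP, 54.2 in WT replicate 2, and 60.1 and 70.7 in GIRK1 (0.59, adjusted p = 0.246, edgeR). UBE2F, which loads NEDD8 onto the ligase, had 103 and 70.5 RPM in eGFP, 70.5 in WT replicate 2, and 46.7 and 56.9 in GIRK1 (-0.79, adjusted p = 0.198).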
